A study of Mus musculus with 12 samples.

Results

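Albumin and 8 other carrier proteins that the liver secretes into plasma were followed at the RNA level in mouse liver, through the genes Alb, Afp, Ttr, Trf, Gc, Ahsg, Fetub, Rbp4 and Ambp. The members were chosen by name, and the level of a gene is the sum of the FPKM of its listed protein-coding transcripts, where FPKM is the number of fragments scaled to the length of the transcript and the size of the library. All 9 genes were found among the 14195 genes of the protein-coding table, with 26 of its 29883 transcripts, and all 9 had a mean of at least 1 FPKM over the 12 mice. The 12 livers came from male mice that were 6 weeks old at the start and were treated for 8 weeks. The label gives the strain as C57BL/8, and the methods of the study give C57BL/6J. Every mouse, controls included, received CCl4 mixed with corn oil by intraperitoneal injection, 10 µl per g of body weight 2 times a week, which injures hepatocytes and leads to fibrosis. The 6 mice of the PZH group were also given Pien Tze Huang (PZH), a traditional Chinese medicine, at 0.25 mg per g into the stomach once a day, and the 6 mice of the control group were given distilled water in its place. No liver without CCl4 was analysed here, so a difference between the groups is one between injured livers, and neither group gives the level of an uninjured liver.

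Hepatocytes make most of the proteins that carry hormones, vitamins, metals and fatty acids in blood. Albumin holds the osmotic pressure of plasma and carries fatty acids and many drugs. Alpha-fetoprotein, the product of Afp, takes its place in the fetus and is switched off after birth, and vitamin D-binding protein (Gc) and afamin (Afm) belong to the same gene family. Transthyretin (Ttr) carries thyroxine and holds retinol-binding protein (Rbp4) in the circulation, and transferrin (Trf) carries iron. The fetuins (Ahsg and Fetub) bind mineral and inhibit proteases, and Ambp encodes a precursor that is split into alpha-1-microglobulin and bikunin. Several of these are known as negative acute-phase proteins, which the liver makes less of during inflammation, while haptoglobin, serum amyloid A and fibrinogen are positive acute-phase proteins.

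The places of the genes are given on GRCm38, as in the annotation. Alb (ENSMUSG00000029368, chr5:90460897-90476602) and Afp (ENSMUSG00000054932, chr5:90490737-90508907) are neighbours on the plus strand and 14135 bases apart. Gc (ENSMUSG00000035540, chr5:89417522-89457898) is on the minus strand of the same chromosome. Ahsg (ENSMUSG00000022868, chr16:22891277-22899449) and Fetub (ENSMUSG00000022871, chr16:22918334-22939778) are a second pair of neighbours, with 18885 bases between them. The remaining members are Trf (ENSMUSG00000032554, chr9:103204001-103230444), Rbp4 (ENSMUSG00000024990, chr19:38116629-38125281) and Ambp (ENSMUSG00000028356, chr4:63143275-63154799), and the place of Ttr is given with its values.

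The upstream sequences of the members that were higher in the PZH group are printed because the transcription factors of the albumin promoter, which are described further on, differed between the groups. The table of RefSeq promoters (GRCm38.p6) held 7 of the 9 members, all but Ttr and Trf. Each sequence is the 250 bases before the RefSeq start of transcription, on the strand of the gene. The windows are chr5:90460620-90460869 (plus) for Alb and chr5:90490464-90490713 (plus) for Afp. Those of Gc and of the start 2 of Rbp4 are chr5:89457899-89458148 (minus) and chr19:38124812-38125061 (minus). RefSeq starts can differ from those of the annotation. The Alb and Afp windows end before the annotated gene starts, 90460897 and 90490737. The Rbp4 window overlaps the transcript Rbp4-202, which extends to 38124828. Capitals mark matches on either strand to GTTAAT, letters known from promoters of liver genes, and to TTATGNAA, the D-box letters that DBP, TEF, HLF and NFIL3 bind.
Alb: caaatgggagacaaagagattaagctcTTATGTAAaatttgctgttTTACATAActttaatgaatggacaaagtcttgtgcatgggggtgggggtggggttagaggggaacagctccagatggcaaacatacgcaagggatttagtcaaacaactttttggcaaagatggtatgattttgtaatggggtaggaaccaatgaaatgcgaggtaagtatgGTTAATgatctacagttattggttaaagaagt
Afp: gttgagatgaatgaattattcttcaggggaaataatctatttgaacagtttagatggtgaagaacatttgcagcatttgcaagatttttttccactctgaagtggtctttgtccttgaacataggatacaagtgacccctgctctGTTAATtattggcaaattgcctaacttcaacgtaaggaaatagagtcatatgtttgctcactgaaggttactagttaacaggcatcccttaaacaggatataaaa
Gc: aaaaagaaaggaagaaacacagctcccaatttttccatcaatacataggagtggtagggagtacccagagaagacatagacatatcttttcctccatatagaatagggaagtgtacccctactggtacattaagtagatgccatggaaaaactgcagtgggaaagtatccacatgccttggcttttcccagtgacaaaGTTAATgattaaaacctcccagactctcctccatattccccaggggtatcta
Rbp4 start 2: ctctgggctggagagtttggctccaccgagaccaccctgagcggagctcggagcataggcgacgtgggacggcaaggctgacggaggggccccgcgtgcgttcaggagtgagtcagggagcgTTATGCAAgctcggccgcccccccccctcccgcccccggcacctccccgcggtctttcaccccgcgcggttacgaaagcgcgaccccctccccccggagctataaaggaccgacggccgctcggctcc

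Positions are counted from the RefSeq start. The Alb sequence held 1 match to GTTAAT, at -32 to -27, and 2 matches to TTATGNAA, at -223 to -216 and, on the other strand, with its last base at -197. Single matches to GTTAAT were found in Afp at -105 to -100 and in Gc at -52 to -47. The start 2 of Rbp4 held TTATGCAA at -128 to -121, and its start 1 held neither motif. Neither motif was found in the same window of Ahsg, Fetub (2 starts) or Ambp. Afp and Gc held no match to TTATGNAA, and Ttr and Trf could not be searched. Among the 32851 promoters of the table, 6.43% held GTTAAT and 3.07% held TTATGNAA in this window. The letters TTGCNNAA, found in many C/EBP sites, were present in Alb, Afp, Ahsg and the start 2 of Rbp4, where they are the same 8 bases as the D-box match, and in 9.56% of all promoters. CCAAT, the NF-Y box, was present in Alb, Afp, Gc, Ambp and the start 1 of both Fetub and Rbp4, and in 33.8% of all promoters. A match describes letters and does not show that a factor binds, and a link between these letters and the levels was not tested.

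Alb was the most abundant protein-coding gene in each of the 12 livers. Its FPKM in the control group had a lowest value of 18015, a median of 23834 and a highest value of 29477, and in the PZH group 33360.0, 36305 and 46362. The groups did not overlap, and the lowest mouse of the PZH group lay above the highest control. On the log2(FPKM + 1) scale the difference, PZH minus control, was 0.68 (SE 0.12, n = 6 mice per group), a 1.60-fold higher level, with an adjusted P of 0.000698 (limma, Benjamini-Hochberg over all genes). Fewer cells of a type and less RNA per cell cannot be told apart in whole liver RNA, here or in the results that follow.

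Afp was the least abundant member and had the largest fold change of the 9. It ranged from 1.33 to 3.92 FPKM in the controls, with a median of 2.19, and from 5.11 to 6.91 in the PZH group, with a median of 6.13. Again the groups did not overlap. The difference between the groups was 2.12-fold (95% interval 0.77 to 1.40 on the log2 scale), at an adjusted P of 0.000105 (limma), and because of the pseudocount of 1 this understates the change of a gene at so low a level. With a pseudocount of 0.1 it was 1.36 on the log2 scale. At the implied depth these values stand for 96 to 195 fragments of the main transcript in a control mouse and 286 to 544 in a mouse of the PZH group. The level of Afp in the PZH group was still far under that of Alb: among all genes by level, Alb had rank 1 in every mouse, and Afp had a rank between 4671 and 6020 in the PZH group and between 7451 and 10368 in the controls.

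The plasma carriers of thyroxine and retinol were both higher in the PZH group. Ttr (ENSMUSG00000061808) lies on chromosome 18, from 20665280 to 20674321 on the plus strand. It had a lowest, median and highest FPKM of 1823, 2611 and 3375 in the controls and of 3094, 4039 and 5043 in the PZH group. Of the 6 mice of the PZH group, 5 lay above the highest control. The difference was 0.68 (SE 0.15), which is 1.60-fold, at an adjusted P of 0.00311 (limma). Rbp4, which travels bound to transthyretin, rose less, from 1464, 1702 and 2310 in the controls to 1925, 2285 and 2497. Its groups overlapped more, with 2 mice of the PZH group above the highest control, Control 6, and all 6 above the control median. Its difference was 0.36 (SE 0.11), 1.28-fold, at an adjusted P of 0.0164 (limma).

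Gc, the carrier of vitamin D and of free actin, was the last member to pass the threshold. Its FPKM was 3028, 3212 and 3446 in the controls and 3305, 3885 and 5232 in the PZH group, in the order lowest, median and highest. The 6 controls were closely grouped, and PZH 1 stood far above the other mice of its group. The difference was 0.29 (SE 0.09), 1.22-fold, at an adjusted P of 0.0226 (limma). It was 0.21 without PZH 1, with an adjusted P of 0.018, and the call was lost in a fit with a mean-variance trend, where the adjusted P was 0.0781.

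Transferrin RNA showed no difference past the threshold at the gene level. Trf ranged from 3482 to 5771 FPKM in the controls (median 5121) and from 3489.5 to 4849 in the PZH group (median 4114). No mouse of the PZH group lay above the control median, and the ranges overlapped. The difference was -0.22 (SE 0.12, 95% interval -0.49 to 0.05), at an adjusted P of 0.17 (limma). Without Control 6 it was -0.32 at an adjusted P of 0.0263, so 1 mouse decided the call.

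No difference passed the threshold for the fetuins or for Ambp. Ahsg, the gene of fetuin-A, had FPKM of 3067, 4654 and 4822 in the controls (lowest, median and highest) and 4004, 4350 and 4573 in the PZH group, and the low end of the controls was Control 4 alone. The difference of Ahsg was 0.00 (95% interval -0.22 to 0.23, adjusted P = 0.98, limma). With single mice left out it lay between -0.09 and 0.04. For Fetub the corresponding values were 191, 236 and 298 FPKM in the controls and 189, 224 and 257 in the PZH group, a difference of -0.08 (95% interval -0.33 to 0.17, adjusted P = 0.6, limma). Ambp lay between 1010 and 1361 FPKM in the controls and between 1028 and 1265 in the PZH group, a difference of -0.08 (95% interval -0.26 to 0.10, adjusted P = 0.481, limma). For Ahsg and for Ambp, no mouse of the PZH group lay above the control median. Differences as far from 0 as -0.33 and 0.23 thus lie within the intervals of these genes.

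**Figure D1:**
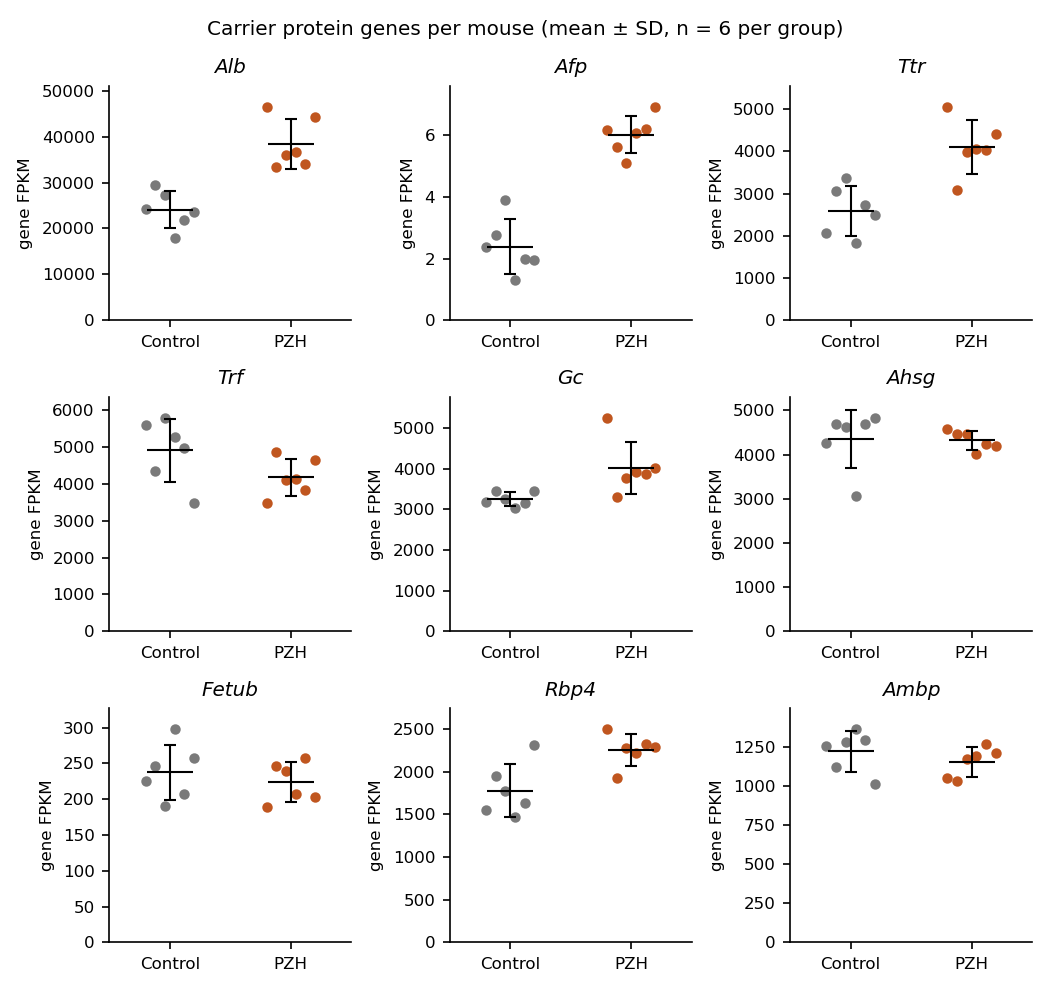
FPKM of each of the 9 carrier protein genes per mouse, with the control group in grey and the PZH group in orange. Points are mice, horizontal marks with bars are mean ± SD of 6 mice, and each vertical axis starts at 0. Alb and Afp have no overlap between the groups, and the Trf, Ahsg, Fetub and Ambp groups lie on each other.

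In all, 5 of the 9 members rose in the PZH group at an adjusted P under 0.05, as 12.7% of all 14195 genes did, and 0 fell, while 32.1% of all genes did. By the rule of the study, a 2-fold change with an unadjusted P under 0.05, only Afp passed, and 1.51% of all genes passed upwards. The 2 members without overlap compare with 6.46% of all genes whose PZH mice all lay above the controls. The median difference over the 9 members was 0.29, and over all genes it was -0.11.

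That median moves with the scale. Dividing each mouse by a median-ratio factor brought the median of all genes to 0.00 and that of the members to 0.48. The same 5 members passed upwards on this scale, where 19.8% of all genes were higher and 19.3% lower. The differences became 0.87 for Alb and for Ttr, 1.23 for Afp, 0.55 for Rbp4 and 0.48 for Gc. The sign of Fetub and Ambp turned, to 0.11 and 0.12, Ahsg stood at 0.20 and Trf at -0.03, and none of these 4 passed the threshold on either scale. The direction given for Fetub and Ambp therefore belongs to the scale.

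**Figure D2:**
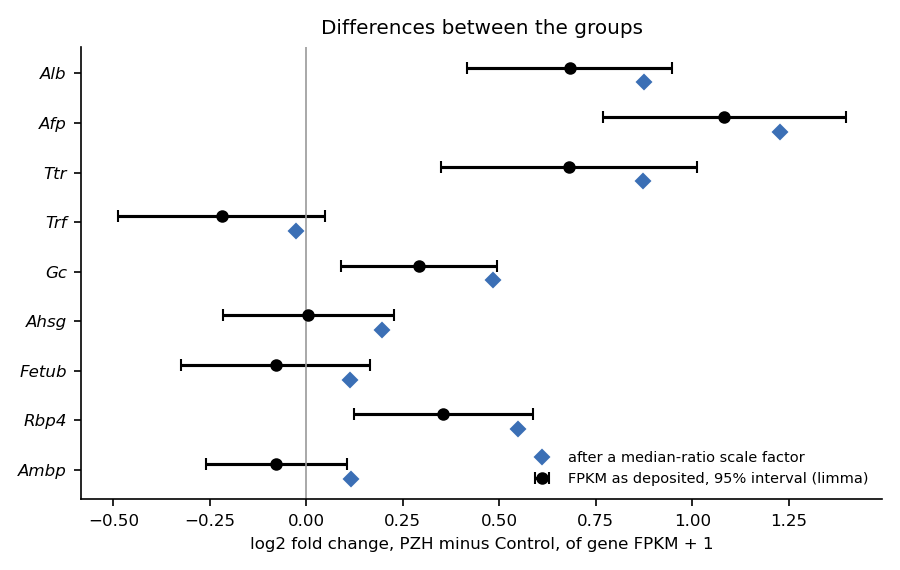
Difference of each member between the groups on the log2(FPKM + 1) scale, PZH minus control, as black points with 95% intervals from limma for the deposited FPKM and blue diamonds for the values after a median-ratio factor. Intervals of Alb, Afp, Ttr, Rbp4 and Gc lie above 0, and those of Trf, Ahsg, Fetub and Ambp include 0.

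The order of the members by level can be read because FPKM is given per length. In the controls the mean FPKM fell from Alb at 24059 ± 4039 (SD, n = 6) to Trf at 4905 ± 859, Ahsg at 4357 ± 660.0 and Gc at 3249 ± 169, and then to Ttr, Rbp4, Ambp, Fetub and Afp. The ranges of Trf, Ahsg, Gc, Ttr and Rbp4 overlapped from each to the next, and Alb, Ambp, Fetub and Afp stood clear of their neighbours. In the PZH group Ahsg at 4325 ± 215, Trf at 4177 ± 505, Ttr at 4102 ± 636 and Gc at 4011 ± 646 overlapped from each to the next, and Alb at 38437 ± 5471, Rbp4, Ambp, Fetub and Afp were separate from their neighbours. Ttr thus stood behind Gc in the controls and ahead of it in the PZH group, and in both groups the ranges of this pair overlapped.

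Because FPKM is relative to the library, the share of the summed protein-coding FPKM was also taken. Alb made up 5.54% to 8.86% of this sum in the controls and 10.2% to 12.7% in the PZH group, with means of 7.26 ± 1.18% and 11.2 ± 1.11% (SD, n = 6). The 9 members together made up 12.8 ± 1.48% and 17.2 ± 1.17%. Both shares differed without overlap between the groups (exact permutation test over 924 labellings, two-sided, P = 0.00216, the smallest this design can give, adjusted P = 0.00325). With Alb taken out of the sum, the other 8 members held 5.97 ± 0.46% and 6.68 ± 0.17% of the rest, and this smaller difference, with overlapping ranges, had an exact P of 0.00866. The higher share of the members in the PZH group was thus mostly that of Alb, at 3.96 of 4.35 percentage points.

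**Figure D3:**
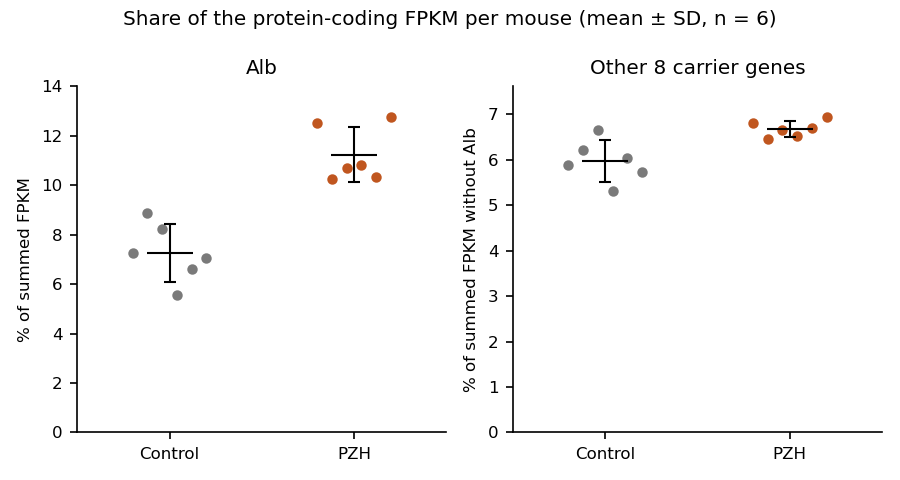
Share of Alb in the summed protein-coding FPKM of each mouse (left) and share of the other 8 members in the sum without Alb (right), in percent. Points are mice and marks with bars are mean ± SD of 6 mice; the Alb shares of 10.2% or more in the PZH group all lie above the highest control, 8.86%.

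Ratios between members were also taken within each mouse, on log2(FPKM + 1), where the pseudocount leaves a ratio with a low gene such as Afp partly dependent on the scale. The log2 ratio of Afp to Alb was -12.81 ± 0.19 in the controls and -12.41 ± 0.16 in the PZH group (SD, n = 6), so that the fetal member rose more than the adult one by 0.40 (exact permutation test, two-sided, P = 0.00866, adjusted P = 0.0173 over the 2 ratios). The ranges overlapped through Control 3, at -12.44, and with the pseudocount of 0.1 the difference was 0.68. The log2 ratio of Rbp4 to Ttr, whose products circulate as a complex, was -0.53 ± 0.30 in the controls and -0.85 ± 0.12 in the PZH group, a difference of -0.32 (exact permutation test, two-sided, P = 0.0346). It was between -0.40 and -0.24 when single mice were left out, with an exact P of up to 0.0736.

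Among the 26 listed transcripts of the members, 19 had a mean FPKM of at least 1, out of 41 transcripts in the annotation. The most abundant transcript carried at least 77.5% of the FPKM of its gene in every mouse, and the lowest of these shares belonged to Fetub. At the adjusted threshold, 4 transcripts were higher in the PZH group, where 5.73% of all transcripts were, and these were the main transcripts Alb-201, Afp-201, Ttr-201 and Rbp4-202. The main transcript of Gc, Gc-201, had a difference of 0.29 and an adjusted P of 0.0521 (limma over 29883 transcripts). The call of Rbp4-202, with an adjusted P of 0.0363, was lost when any of several mice was left out, with values up to 0.0763.

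A single transcript of the members was lower in the PZH group, where 14% of all transcripts were lower. It was Trf-204 (ENSMUST00000126359, chr9:103223085-103228442, minus strand), a model of 7 exons and 791 bases whose coding end is marked as incomplete. Its FPKM was 28.4, 20.8, 19.7, 29.6, 24.7 and 12.2 in Control 1 to 6 and 5.16, 13.9, 2.31, 1.52, 6.84 and 7.56 in PZH 1 to 6. Only PZH 2 lay above the lowest control, Control 6. The difference was -1.90 (SE 0.39, adjusted P = 0.00503, limma), and it was also the only member transcript with a 2-fold fall by the rule of the study, which 1.99% of all transcripts passed downwards. Trf-204 held 0.46 ± 0.09% of Trf in the controls and 0.14 ± 0.09% in the PZH group. Main transcript Trf-201 carried 96.0% or more of the gene in every mouse and differed by -0.22 (adjusted P = 0.283, limma). A change of so minor a transcript would not show in the gene total. Trf-204 lies within the span of Trf-201, and whether its fall reflects how fragments were split between them was not tested.

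The transcripts of Trf, Trf-204 included, overlap one another and a further gene, and their split is uncertain. Trf-207 varied between 37.9 and 155 FPKM within the groups and differed by 0.00 (SE 0.42). Trf-208 was at 15.3 ± 3.48 FPKM in the controls and 11.4 ± 1.12 in the PZH group (adjusted P = 0.0747, limma). Trf-203 was listed at 0 in 7 of the 12 mice and reached 6.16 FPKM in the others. Gm20425, which overlaps Trf on the same strand, was listed at 33.5 to 45.5 FPKM in Control 6, PZH 5 and PZH 6 and at under 0.06 in the other mice, so fragments may have been assigned to either gene. Among the minor transcripts of the fetuins, Fetub-202 was at 35.4 ± 6.95 FPKM in the controls and 23.9 ± 8.85 in the PZH group (adjusted P = 0.095, limma), and Fetub-207 and Ahsg-205 had adjusted P of 0.186 and 0.956. Rbp4-201, the longer of the Rbp4 transcripts, differed by 0.38 (adjusted P = 0.168), close to the 0.35 of Rbp4-202. Gc-202, Ambp-201 and Ambp-202 had adjusted P of 0.721, 0.613 and 0.549 (limma).

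Within the control group the members did not vary together in full. Control 4 had the lowest value of the 6 controls for Alb, Afp, Ttr, Gc, Ahsg and Rbp4 and the highest for Fetub and Ambp. In the PZH group, PZH 1 was the highest for Alb, Ttr, Gc, Ahsg and Rbp4 and the lowest for Trf and Fetub, and PZH 2 was the lowest for Alb, Ttr, Gc, Rbp4 and Ambp and the highest for Trf. Control 4 also had the highest level of all 12 mice for 14 of the 20 positive acute-phase genes. Its Saa1, a serum amyloid A gene, was at 893 FPKM, against 16.8 to 153 in the other controls and 10.6 to 34.8 in the PZH group. Without Control 4 the differences were 0.60 for Alb, 0.98 for Afp, 0.58 for Ttr, 0.30 for Rbp4 and 0.27 for Gc, and all 5 kept an adjusted P under 0.05, with Gc at 0.0479. PZH 1 was the mouse with the highest implied depth, 42.8 M fragments, against 26.8 to 35.6 M in the controls. Without it Alb differed by 0.62 and Ttr by 0.62. The part of either mouse's state or depth in the differences was not tested beyond these values.

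**Figure D4:**
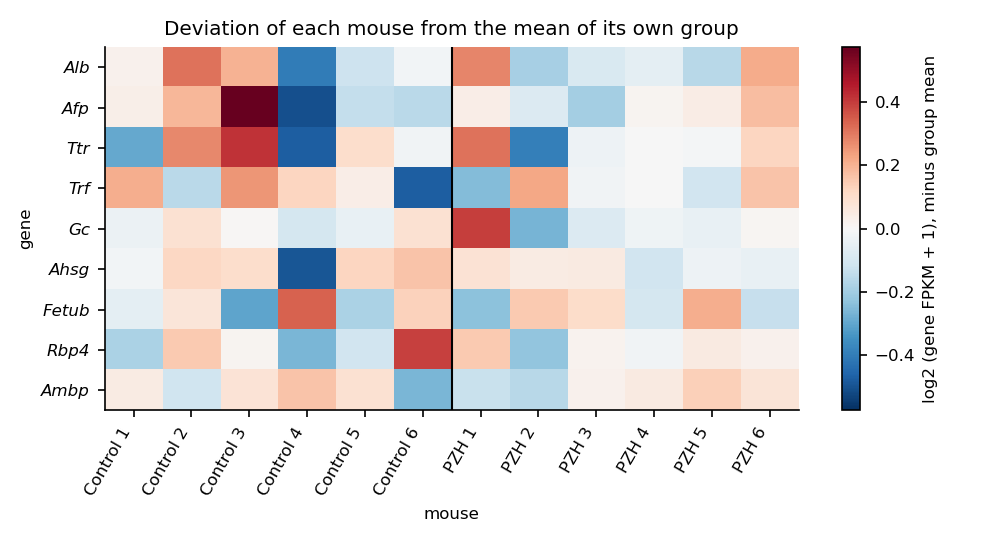
Deviation of each mouse (columns, control left and PZH right of the line) from the mean of its own group for each member (rows), in log2(FPKM + 1), red for above and blue for below. Control 4 is blue for Alb (-0.40), Afp (-0.51), Ttr (-0.48) and Ahsg (-0.49) and red for Fetub (0.34), and PZH 1 is red for Gc (0.40).

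The neighbours of Alb were examined because the gene family lies in a row on chromosome 5. Afm, the gene of afamin, a carrier of vitamin E, starts 10025 bases beyond Afp. It was at 71.7 ± 18.3 FPKM in the controls and at 122 ± 16.6 in the PZH group (SD, n = 6), without overlap, a difference of 0.79 (SE 0.16, adjusted P = 0.00129, limma). Alb, Afp, Afm and Gc of the albumin family were thus all higher in the PZH group, where 12.7% of all genes were. The next gene, 5830473C10Rik, was at 14.3 and 19.3 FPKM on average (difference 0.44, adjusted P = 0.0361), and Rassf6 beyond it at 5.39 and 5.83 (0.10, adjusted P = 0.518). On the other side of Alb, Gm9958 differed by 0.29 (adjusted P = 0.00825, limma) and Ankrd17 by -0.16 (adjusted P = 0.159). These neighbours were named for their place, after their values were seen. On chromosome 16 Ahsg and Fetub are followed by Hrg, Kng2 and Kng1, which encode histidine-rich glycoprotein and kininogens. None of these 5 genes passed the threshold, with differences of 0.03 for Hrg (adjusted P = 0.854), -0.09 for Kng2 (0.432) and 0.04 for Kng1 (0.683, limma).

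The other plasma carriers of hepatocytes went in both directions. Of 18 such genes, all measured, 5 rose and 8 fell, where 12.7% of all genes rose and 32.1% fell. The median difference of the 18 was -0.24. The largest rise was that of Serpina6, which encodes the carrier of corticosterone, from 43.6 ± 22.1 to 233 ± 66.4 FPKM (SD, n = 6; difference 2.52, adjusted P = 0.000197, limma), without overlap. Afm came next, and Apom, the carrier of sphingosine-1-phosphate, Selenop, which carries selenium, and Azgp1 were the others. Orm2, an orosomucoid that binds drugs and lipids, fell from 35.2 ± 29.6 to 7.18 ± 1.18 FPKM (-1.81, adjusted P = 0.00272). Hp, haptoglobin, the carrier of free hemoglobin, fell by 1.21 (adjusted P = 0.00884) and Hpx, the carrier of heme, by 0.80. Orm1, Cp, Itih3, Itih4 and Serpina7, the carrier of thyroxine, were also lower. After the median-ratio factor 5 were higher and 6 lower, against 19.8% and 19.3% of all genes. The calls of Itih3 (-0.15, adjusted P = 0.263) and Itih4 (-0.29, adjusted P = 0.13) were lost there. All of the carriers that fell, except Serpina7, stand on the list of positive acute-phase genes too. Of the thyroxine carriers, Ttr and Alb were thus higher and Serpina7 lower in the PZH group, at 369.6 ± 62.6 and 228 ± 59.2 FPKM (adjusted P = 0.00422, limma).

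Most of the positive acute-phase genes moved against the members that rose. Of 20 genes, 0 were higher and 17 lower, where 12.7% of all genes were higher and 32.1% lower. Their median difference was -1.16. Saa2, Saa1 and Lcn2, the gene of lipocalin-2, fell by 2.73, 2.47 and 2.06 on the log2 scale (adjusted P = 0.0145, 0.0145 and 0.000901, limma). Without Control 4, the highest mouse for Saa1, the differences of Saa2, Saa1 and Lcn2 were -2.04, -1.86 and -1.71, and each kept an adjusted P under 0.05. Saa3, Saa4 and Crp did not pass, and Saa4 had a positive difference of 0.54 (adjusted P = 0.102). The summed FPKM of the list was 16037 to 28538 in the controls and 8925 to 10702 in the PZH group, without overlap, while the sum over the 9 members was 34333 to 48345 and 52279 to 68442. After the median-ratio factor 14 of the 20 were lower and 1 higher, against 19.3% and 19.8% of all genes.

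**Figure D5:**
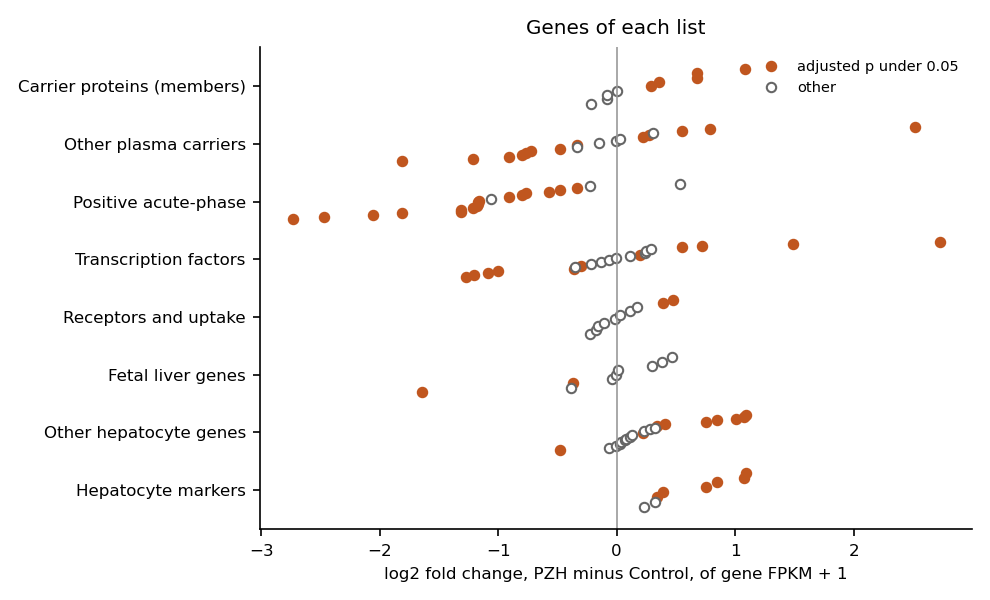
Difference between the groups (horizontal axis, log2 of FPKM + 1, PZH minus control) for each gene of 8 lists, filled where the adjusted P was under 0.05. Members that passed lie to the right of 0 and the positive acute-phase genes that passed to the left, while other carriers and transcription factors lie on both sides.

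Transcription factors of the albumin and alpha-fetoprotein genes also went both ways, with 5 of 20 higher and 6 lower, where 12.7% of all genes were higher and 32.1% lower. After the median-ratio factor 8 were higher and 4 lower, against 19.8% and 19.3% of all genes. The factors of the D-box were among those with the largest changes. Dbp, named for its binding to the albumin promoter, was at 0.47 to 3.57 FPKM in the controls and at 11.8 to 26.1 in the PZH group (difference 2.73, SE 0.28, adjusted P = 2.25e-05, limma). Its relatives Tef and Hlf rose by 1.49 and 0.72 (adjusted P = 0.000693 and 0.000976). Nfil3, which represses through the D-box, was lower by -1.09 (adjusted P = 0.000394). For the C/EBP factors, Cebpa rose by 0.55 (adjusted P = 0.00141), and Cebpb, the member of the family induced in the acute phase, was at -1.20 (adjusted P = 0.000311).

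Foxa3 was lower by -1.27 (adjusted P = 3.88e-05, limma). Trp53, a repressor of Afp, was at 12.8 ± 1.93 FPKM in the controls and 5.92 ± 1.20 in the PZH group (adjusted P = 6.33e-05), and Nr5a2 was higher by 0.19. Hnf4a, a general regulator of hepatocyte genes, differed by -0.30 (adjusted P = 0.00937), but by -0.11 after the median-ratio factor, where it did not pass (0.25). Zhx2 and Zbtb20, which keep Afp off after birth, stood at -0.36 (adjusted P = 0.026) and 0.24 (0.117). The Zhx2 call was lost after the median-ratio factor (-0.20, adjusted P = 0.138), and Zbtb20 passed there (0.43, 0.0151).

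Other genes known from fetal liver formed a list of 12, of which 9 were measured. Of these, 0 were higher and 2 lower, with a median of 0.00, where 12.7% of all genes were higher and 32.1% lower. After the median-ratio factor 2 were higher and 1 lower, against 19.8% and 19.3% of all genes. Sox9, also a marker of bile duct cells, fell from 10.7 ± 1.78 to 2.73 ± 0.43 FPKM (-1.64, adjusted P = 5.16e-06, limma), and Igf2bp2 was lower by -0.37 (adjusted P = 0.0174), a call lost after the median-ratio factor (-0.28, adjusted P = 0.0637). Gpc3, a fetal liver glypican, had a difference of 0.47 (adjusted P = 0.0622) and passed at 0.62 after the median-ratio factor (adjusted P = 0.0213), as did Epcam at 0.37 (0.0457). Igf2, Dlk1 and Lin28b were not analysed here.

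Of 13 listed genes for receptors that take up or recycle these carriers, 10 were measured. Of these, 2 were higher and 0 lower, where 12.7% of all genes were higher and 32.1% lower. The 2 were the subunits of the asialoglycoprotein receptor, Asgr2 at 0.48 and Asgr1 at 0.39 (adjusted P = 0.00111 and 0.00359, limma). Fcgrt, which recycles albumin, was at 29.1 ± 3.37 and 32.9 ± 4.13 FPKM (difference 0.17, adjusted P = 0.181). The transferrin receptors Tfrc and Tfr2 had differences of -0.02 and -0.16 (adjusted P = 0.962 and 0.168), and Stra6l, a receptor of retinol-binding protein, -0.17 (0.224). On the median-ratio scale Fcgrt passed, at 0.36 (adjusted P = 0.0216).

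Genes that mark liver cell types give the setting of these values, and their part in the results was not tested. Hepatocyte markers that are no members were higher in 6 of 8 and lower in 0, with a median of 0.57, and their summed FPKM was 4025 to 5567 in the controls and 5648 to 8675 in the PZH group. The sums of the other lists overlapped between the groups. Beside the counts in each list, 12.7% of all genes were higher and 32.1% lower, and 19.8% and 19.3% after the median-ratio factor. The stellate cell and fibroblast list was at 217 to 324 and 282 to 355 FPKM, with 2 genes higher, Reln and Col3a1, and 2 lower, Acta2 among them. Kupffer cell and macrophage genes were at 379 to 482 and 373 to 570.0, with 3 higher and 2 lower. Clec4f and Vsig4 rose by 0.60 and 0.57 (adjusted P = 0.0251 and 0.00291, limma), without overlap, and Marco fell by 2.21. With single mice left out, the adjusted P of Clec4f reached 0.0548. Bile duct genes lay at 96.9 to 161 and 66.9 to 133 (1 lower, Sox9), endothelial genes at 99.9 to 117 and 93.5 to 120.2 (2 lower, Lyve1 and Pecam1), neutrophil genes at 19.1 to 64.4 and 13.3 to 139.6 (2 lower, Cxcr2 and Csf3r) and lymphocyte genes at 3.79 to 6.67 and 4.41 to 6.33 (0 either way). After the median-ratio factor the genes higher and lower were 8 and 0 for hepatocytes, 4 and 2 for stellate cells, 5 and 1 for macrophages and 1 and 1 for bile duct. They were then 1 and 1 for endothelium, where the Pecam1 call was lost (-0.12, adjusted P = 0.202), 0 and 2 for neutrophils and 2 and 0 for lymphocytes. No list had a gene at 0 in all mice.

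The genes whose pattern was most like that of Alb were found by the SD over the 12 mice of their log2 ratio to Alb, among 3884 genes with a mean of at least 10 FPKM. Maob, a monoamine oxidase, had the smallest SD, 0.097, followed by Serpind1 (heparin cofactor II, 0.11), Tpmt (0.11), Otc (ornithine transcarbamylase, 0.12) and Timd2 (0.12), where the median gene had 0.54. Each of these had a difference between the groups of 0.61 to 0.76. Of the members, Ttr was the 18th gene in this order, at 0.16, then Rbp4 the 221st at 0.26 and Gc the 230th at 0.26, and Trf was the 2275th at 0.58. For Afp, the 5 nearest of 3885 genes were Ces2g (0.15), Gstm7 (0.19), Mpzl2 (0.19), Afm (0.20) and Amdhd1 (0.20), against a median of 0.73. The SD includes the difference between the groups, so these orders describe the 12 mice and give no test.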

How the data were processed

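RNA from 12 livers, 6 in each group, was depleted of ribosomal RNA, and strand-specific libraries were read by the authors as pairs of 150 bases. Reads were trimmed with Trimmomatic, mapped with HISAT2 2.1.0 to GRCm38 and quantified with StringTie 1.3.5 on the transcripts of Ensembl 95. The authors deposited linear FPKM per transcript, already divided by length and library size, in a protein-coding and a lncRNA table. These are not read counts. The protein-coding table lists transcripts whose sum over the mice is at least 1.0. Transcripts were assigned to genes with GENCODE M21, which held 29876 of the 29883, and the other 7 were kept as genes of their own. Gene FPKM is the sum of the listed transcripts.

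Groups came from the sample titles. Values were tested on log2(FPKM + 1), with no filter, in R 4.3.3 with limma 3.58.1 and Benjamini-Hochberg adjustment over all genes or transcripts, and the 2-fold rule with an unadjusted P under 0.05 was taken from the study. Single values were compared by exact two-sided permutation. All other steps were run in Python 3.11.15 (numpy 2.4.6, pandas 2.3.3, matplotlib 3.10.9). The procedure was tested on simulated data.

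In each mouse 25 to 47 low values lay within 0.05% of 1 to 4 times what 1 fragment is worth, against a median of 5 to 7 for other steps, which implied 26.8 to 42.8 M fragments. At most 1.31% of low values did so, so that read counts could not be had and the spread of the mice stands for the precision. The members, gene lists and tests were chosen with earlier results of these data known. Named in the text were all members, those of their transcripts that averaged 1 FPKM or more, 13 genes fixed by name, up to 3 passing genes of each list with the largest change and the 5 genes most like Alb and Afp. Of the genes this gives, 2 are not reported here. Other names were chosen after their values were seen. The alternatives were another pseudocount, a filter, 3 rescalings, 2 variance models, the main transcript alone, blocking on the mouse number and leaving out each mouse. Same-numbered mice of the groups did not deviate together. The lncRNA table entered only the sum of both tables.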

Additional observations from a re-analysis of the deposited data

Results flagged for a closer look

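Within a group of 6 mice, a value was listed here when the gap of the highest or lowest mouse to the nearest other was, as a part of the range of the group, above Dixon's critical value for 6 values. Of 134 groups of values, 12 met it. A rate of 1 in 20, or about 6.7, holds for independent and normally distributed values. A gene and its main transcript are not independent, so these counts give no test. Among the members, PZH 1 had a Gc level of 5232 FPKM (Gc-201 at 5229), where the other mice of its group lay between 3305 and 4000.1. Control 4 had an Ahsg level of 3067 FPKM (Ahsg-201 at 3059.7), below the 4257 to 4822 of the other controls. The transcript Trf-208 was at 13.5 FPKM in PZH 6 and at 10.3 to 11.3 in the others of its group. The log2 ratio of Afp to Alb was -12.44 in Control 3, where the other controls lay between -12.95 and -12.80.

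Of the other listed genes, Control 4 stood apart upwards in 4 acute-phase genes, with Saa1 at 893 FPKM, Saa2 at 494, Lcn2 at 606 and Orm2 at 91.9, against highest values of 153, 70.9, 224 and 36.7 in the other controls. PZH 1 was the lowest of its group for Hnf4a, at 105 FPKM against 135 to 146. Serpina6 was at 104 FPKM in PZH 2 and at 235 to 296 in the others of the group. No cause of these values was tested.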

How the results depend on the processing

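The direction of every member that passed was the same in each alternative and with each mouse left out. Alb, Afp, Ttr and Rbp4 also stayed under the adjusted threshold throughout, with adjusted P of at most 0.0175, 0.00228, 0.0161 and 0.0384 (limma), and Gc missed it only in the mean-variance fit. No result changed sign with a call. With each mouse left out in turn, 0 to 1 members were lower, the 1 being Trf without Control 6, and 1 to 2 member transcripts were lower, with Trf-208 added without Control 6 and Fetub-202 without PZH 5. The Rbp4 to Ttr difference was then between -0.40 and -0.24, with exact P of 0.00433 to 0.0736. In the other gene lists 25 of 123 genes were higher and 35 lower, where 12.7% of all genes were higher and 32.1% lower. The median-ratio factor raised the first count to 44 and lowered the second to 26, against 19.8% and 19.3% of all genes.

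The mouse numbers did not pair the mice. Correlations of same-numbered deviations ran from -0.078 to 0.093, and no mouse correlated best with its own number. With the number as a replicate block, 2 member transcripts were higher in place of 4, and exact sign-flip P were 0.0625 for the share of the 8 members without Alb (difference 0.71), 0.0625 for Afp to Alb (0.40) and 0.156 for Rbp4 to Ttr (-0.32), where 6 pairs cannot give less than 0.0312. The block changed no call of a member gene. Cause of these shifts was not tested. Levels are RNA per library, so they give no absolute amount per liver, serum albumin was not analysed here, and the low level of Afp limits the precision of its fold change.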

Other observations

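Genes of amino acid and nitrogen metabolism, which are also expressed in hepatocytes, led the list of other abundant hepatocyte genes, of which 8 of 20 rose and 1 fell, with a median difference of 0.23, where 12.7% of all genes rose and 32.1% fell. After the median-ratio factor 13 were higher and 0 lower, against 19.8% and 19.3% of all genes. Hpd, an enzyme of tyrosine breakdown, rose from 250.1 ± 48.4 to 532 ± 115 FPKM (SD, n = 6) and Ass1, of the urea cycle, from 362 ± 64.0 to 735 ± 176 (adjusted P = 0.000305 and 0.000373, limma). Cps1, the entry enzyme of the urea cycle, was 0.85 higher (adjusted P = 0.000335).

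Beside Trf and Ahsg lie genes of the secretory pathway that were lower in the PZH group, where 32.1% of all genes were lower. No other examined neighbour of Trf or Ahsg passed the threshold downwards. The genes given here were named after their values were seen. Srprb, a subunit of the receptor that docks ribosomes at the endoplasmic reticulum, lies 1864 bases from Trf and was at 13.7 to 17.0 FPKM in the controls and 4.84 to 8.80 in the PZH group (difference -1.12, adjusted P = 1.7e-05, limma). Dnajb11, a chaperone of the endoplasmic reticulum 11643 bases from Ahsg, was at 45.4 to 63.1 and 22.7 to 38.9 FPKM (-0.83, adjusted P = 0.000198). Neither pair of groups overlapped.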
